A study of Mus musculus with 6 samples.

Results

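Mitochondrial carriers of the Slc25 family and the genes of the mitochondrial protein import machinery were compared between N18 mouse neuroblastoma cells transfected with an siRNA against Nrsf and N18 cells transfected with a scrambled siRNA. Nrsf is another name of Rest, a zinc finger protein that represses neuronal genes in non-neuronal cells. The members were the genes whose array symbol was Slc25a followed by a number, or began with Timm or Tomm and a number. They numbered 69 of the 19087 genes named by the array, comprising 44 carriers, 15 Timm genes and 10 Tomm genes, and all 69 could be tested, on 115 spots. A total of 37 members had 1 spot and 32 had several.

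The 6 two-channel arrays each set total RNA of siRNA-transfected cells directly against total RNA of scrambled-transfected cells. The siRNA sample was in Cy5 on arrays 1 to 3 and in Cy3 on arrays 4 to 6. N18 is a single cell line, the knockdown is transient, and how long it lasted before RNA isolation is not stated in the labels. The deposited values are taken as log2 of siRNA over scrambled, so a positive value means a higher level in siRNA-transfected cells. The log base is not stated, and log2 was assumed. The direction is likely from the labels rather than stated, and if the ratio is scrambled over siRNA, every direction given here is the opposite. Ratios carry no absolute level, so whether a spot lay above background, and whether N18 cells express their defining markers, could not be read from them.

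As background, nearly all mitochondrial proteins are encoded in the nucleus and made in the cytosol. Precursors enter through the TOM complex of the outer membrane, where Tomm20, Tomm22 and Tomm70a act as receptors and Tomm40 forms the pore. The TIM23 complex of the inner membrane then takes up precursors that carry a presequence, while small TIM chaperones hand carrier precursors to the TIM22 complex. The Slc25 carriers are themselves such cargo, and once inserted they exchange nucleotides, phosphate, metals, amino acids and carboxylates across the inner membrane. A few family members sit elsewhere, among them Slc25a17 in peroxisomes and Slc25a46 in the outer mitochondrial membrane.

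Rest itself was lower on 6 of 6 arrays, at -0.35 ± 0.13 (SD, n = 6), or 78.5% of the level in scrambled cells, with an adjusted p of 0.00353 and a two-sided exact sign-flip p of 0.0312, the smallest that 6 arrays allow. Its spots were at -0.55, -0.44 and -0.05, and the last of these did not pass (adjusted p = 0.751). Array 1 stood apart from the rest. Its Pearson correlation with the other arrays over all genes was 0.29 to 0.37, whereas pairs among arrays 2 to 6 gave 0.54 to 0.82. Of the markers chosen for other cell types, 0 of 12 glial, 0 of 14 mesenchymal and 0 of 6 immune genes passed in limma, against 15% of all genes. Each list had 1 gene at an unadjusted p under 0.05, and the list medians were 0.017, 0.0094 and 0.018. Of 10 neuroblast markers, 6 rose and 1 fell (60% and 10%, against 5.88% and 9.11% of all genes). Phox2a, Hand2, Chga, Chgb, Tubb3 and Gap43 rose (means of 0.20 to 0.70), Gata3 fell (-0.51), and Th, Dbh and Stmn2 did not pass. Tubb3 passed at an adjusted p of 0.0494 and was at -0.15 on array 1. On that array Phox2a, Hand2, Chga and Gap43 lay between 0.009 and 0.057. Without array 1, again 6 were higher and 1 lower (against 13.7% and 12.2% of all genes). On the Cy5 arrays alone 0 of the 10 passed in limma, against 0.0473% of all genes, with 4 at an unadjusted p under 0.05.

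The share of members that changed was near that of all genes. Past an adjusted p of 0.05, 4 carriers and 4 import genes changed, 8 of 69 members, or 11.6%, against 15% of all 19019 genes tested. The 4 that rose were Tomm22, Slc25a16, Timm17b and Slc25a4, which is 5.80% of members against 5.88% of all genes. The 4 that fell were Slc25a38, Timm29, Tomm34 and Slc25a3, or 5.80% against 9.11% of all genes. The median ratio was -0.010 over members, 0.0029 over carriers, -0.046 over import genes and 0.0025 over all genes. Most members stayed near 0, with 50 of 69 within 0.1 of it, 38 of them carriers. At an unadjusted p under 0.05 there were 16 members, or 23.2%, against 25.7% of all genes. Tomm22 was the one member past the threshold by at least 1.5-fold, a share of 1.45% against 1.01% of all genes.

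**Figure D1:**
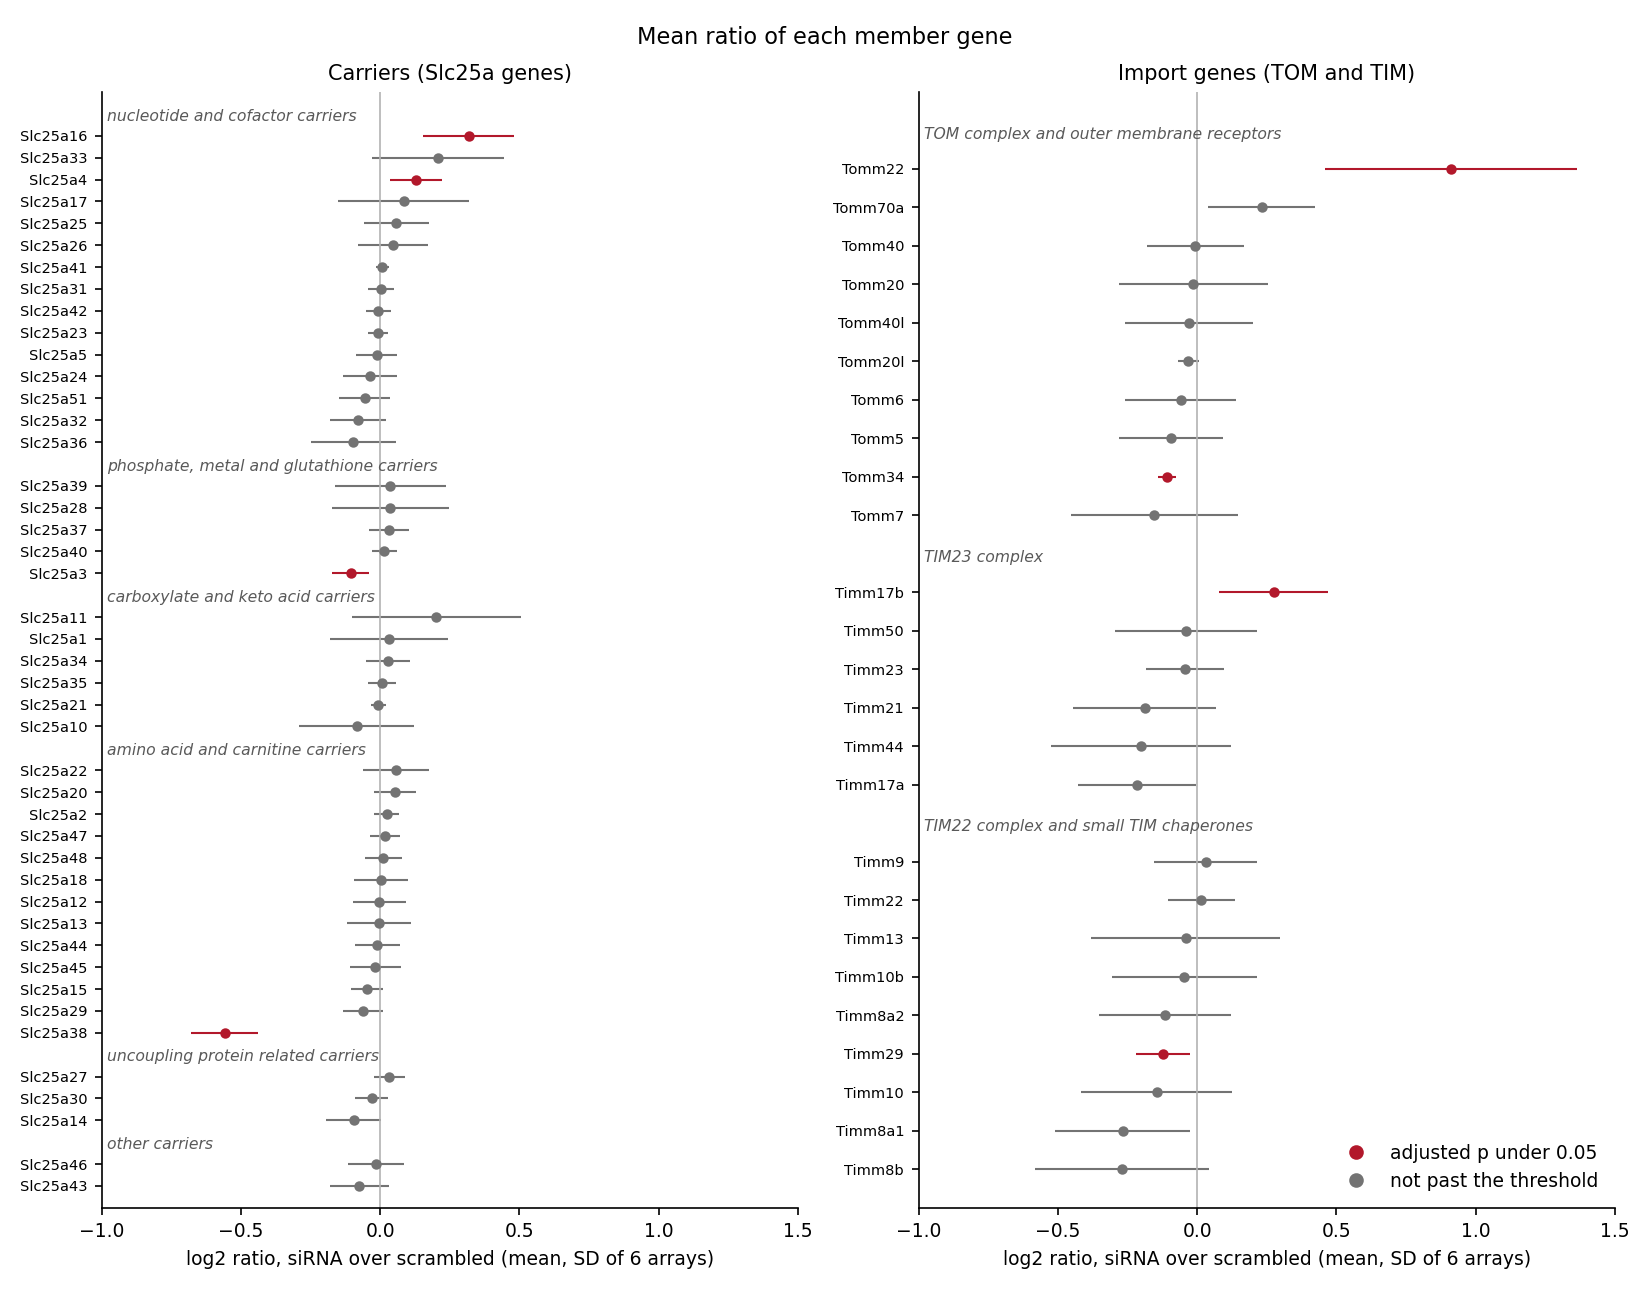
Mean log2 ratio of siRNA over scrambled (horizontal axis) for each of the 69 members, listed by role, with bars for the SD over 6 arrays and red points for members with an adjusted p under 0.05. Slc25a38 at -0.56 and Tomm22 at 0.91 lie farthest from 0, and most carriers lie within 0.1 of it.

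The sequences just before the transcript starts of 3 changed members are shown because Rest acts at DNA and because these are the member that fell most, the member that rose most, and the one changed member that held an NRF1 motif. They are the 250 bases upstream of the start in RefSeq on build GRCm38.p6, written 5′ to 3′ on the gene's strand, and capitals mark motif matches. Slc25a38 lies on the plus strand at chr9:120110132-120110381, Tomm22 on the plus strand at chr15:79670618-79670867 and Slc25a3 on the minus strand at chr10:91123968-91124217.
Slc25a38: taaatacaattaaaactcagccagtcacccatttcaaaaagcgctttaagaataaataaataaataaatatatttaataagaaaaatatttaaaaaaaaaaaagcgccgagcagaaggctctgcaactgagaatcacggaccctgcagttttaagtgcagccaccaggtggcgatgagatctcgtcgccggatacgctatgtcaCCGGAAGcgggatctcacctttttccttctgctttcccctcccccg
Tomm22: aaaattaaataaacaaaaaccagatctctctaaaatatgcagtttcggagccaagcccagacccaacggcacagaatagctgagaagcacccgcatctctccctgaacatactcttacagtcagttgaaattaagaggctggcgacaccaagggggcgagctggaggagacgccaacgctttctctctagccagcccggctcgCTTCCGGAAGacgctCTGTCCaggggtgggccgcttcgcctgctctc
Slc25a3: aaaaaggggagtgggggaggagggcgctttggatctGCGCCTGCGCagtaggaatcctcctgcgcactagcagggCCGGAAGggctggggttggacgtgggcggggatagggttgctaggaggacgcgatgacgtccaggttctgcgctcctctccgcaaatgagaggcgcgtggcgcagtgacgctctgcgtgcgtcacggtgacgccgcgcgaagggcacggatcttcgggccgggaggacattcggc
The motifs searched, on both strands, were the REST element's left part (CAGCACC) and right part (GGACAG), both parts in that order with 2 free bases between them, the NRF1 motif (GCGC, any base, then TGCGC) and the ETS motif bound by GABP (CCGGAAG). NRF1 and GABP are known regulators of nuclear genes for mitochondrial proteins. In Slc25a38 the capitals are an ETS match 46 to 40 bases before the start. In Tomm22 they are 2 overlapping ETS matches, 47 to 41 and 44 to 38 bases before the start, and a match to the right part of the REST element 32 to 27 bases before it. In Slc25a3 they are an NRF1 match 214 to 205 bases and an ETS match 175 to 169 bases before the start.

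Windows were found for 56 of the 69 members, 67 windows in all, out of 32851 in the table. Both parts of the REST element in order were in 0 of the 67 windows and in 0.0335% of all windows. The left part alone was in 7.46% of member windows and 5.73% of all windows, and the right part alone, a motif of 6 letters, was in 23.9% of member windows and 18.7% of all. Counted by gene, the right part was in 15 of the 56 members with a window and in 4 of the 8 changed members. The left part was in 5 of the 56 and in 0 of the 8. The NRF1 motif was in 4.48% of member windows against 3.74% of all. The ETS motif was in 20.9% of member windows against 6.91% of all. Counted by gene, the ETS motif was in 13 of the 56 members with a window, and a count by gene over all genes was not made. It was in 6 of the 8 changed members, namely Slc25a3, Slc25a38, Slc25a4, Timm29, Tomm22 and Tomm34, which include members that rose and members that fell. Whether changed members hold it more often than other genes was not tested. A match is a description of these letters in this window, and no factor binding was measured.

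Among the outer membrane receptors and the TOM complex, Tomm22 rose and Tomm34 fell, and 8 of 10 genes did not pass the test. Tomm22, the central receptor that joins the other receptors to the pore, was at 0.25, 1.40 and 1.42 on arrays 1 to 3 and at 0.64, 0.80 and 0.94 on arrays 4 to 6. It was higher on all 6 arrays, with array 1 lowest. The mean of 0.91 ± 0.45 (SD, n = 6) corresponds to 1.88-fold, with an adjusted p of 0.0119. It was 1.03 ± 0.67 on the arrays with Cy5-labelled siRNA samples and 0.80 ± 0.15 on the others (SD, n = 3 each). Tomm22 rests on 1 spot, its adjusted p was 1.83e-06 without array 1, and it missed the threshold without array 5 (0.0623) or 6 (0.0607).

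Tomm34, a cytosolic co-chaperone of Hsp70 and Hsp90 for precursor proteins, ran from -0.16 to -0.062 over the 6 arrays with a median of -0.11. All 6 values, each an average of 2 spots, were below 0 and close together, but the single spots were less alike. The mean was -0.11 ± 0.03 (SD, n = 6), or 92.8% of the scrambled level, with an adjusted p of 0.0171. Its spots lay at -0.07 and -0.15, and the second passed at the level of spots (adjusted p = 0.0309). The first was at 0.023, -0.006 and -0.022 on arrays 1 to 3 and at -0.162, -0.103 and -0.135 on arrays 4 to 6. The second shifted the other way, from -0.334, -0.232 and -0.148 to -0.067, -0.120 and 0.012. The average thus hides a difference between arrays 1 to 3 and arrays 4 to 6 in the single spots. The cause of that difference was not tested, and the dye term of the gene did not pass in limma (adjusted p = 0.868). The call was lost without array 2, 4, 5 or 6, where the adjusted p lay between 0.0544 and 0.0812, on the Cy3 arrays alone (0.0602) and with the first spot per gene (0.119).

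**Figure D2:**
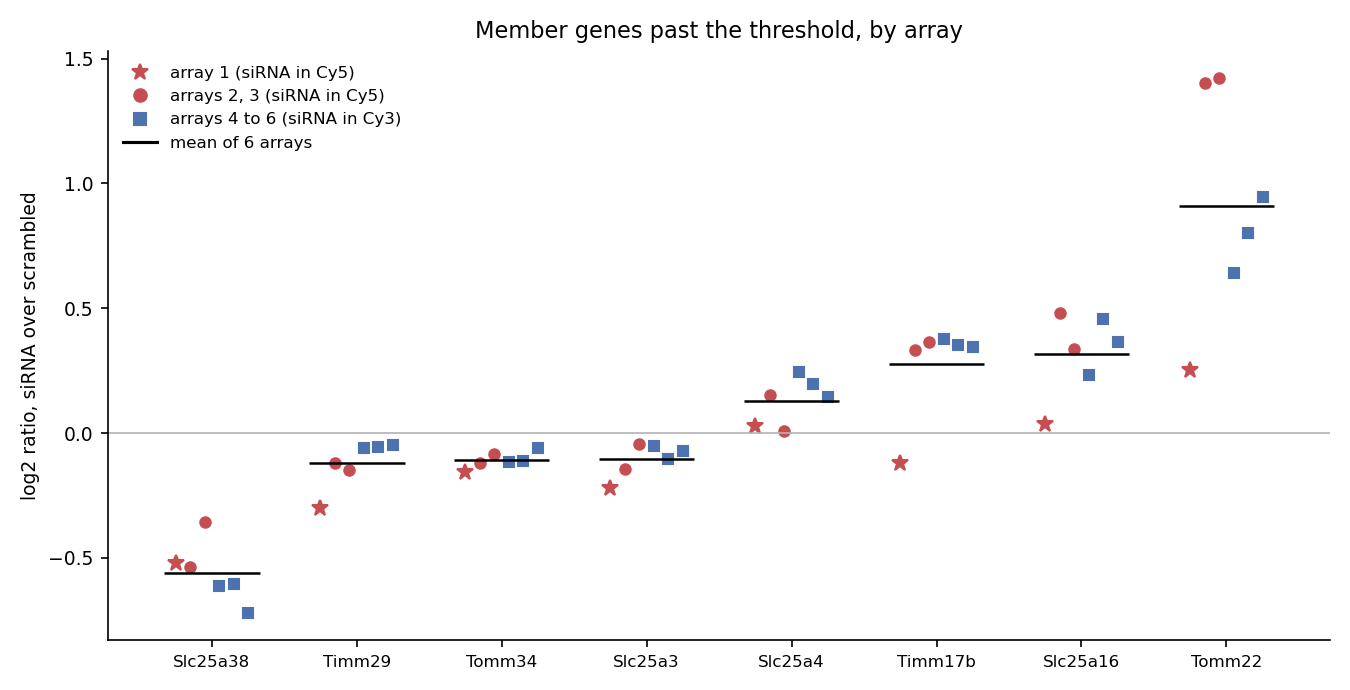
Log2 ratio of siRNA over scrambled (vertical axis) on each array for the 8 members past the threshold, with the mean as a bar. Tomm22 lies between 0.25 and 1.42 and Slc25a38 between -0.72 and -0.36, while array 1 is the lowest array for Tomm22, Slc25a16, Timm17b, Timm29, Tomm34 and Slc25a3.

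The other receptor genes could not be summarised by a mean, because their spots went apart. Tomm70a, the receptor that takes up carrier precursors from cytosolic chaperones, had 4 spots, and 3 of them were listed for 1 RefSeq transcript. The first of these was at 0.17, 1.07 and 1.05 on arrays 1 to 3 and at 0.85, 0.94 and 0.98 on arrays 4 to 6, a mean of 0.84 ± 0.34 (SD, n = 6; adjusted p = 0.00572). The second was at 0.76 ± 0.35 (adjusted p = 0.00474). The third was at -1.07, -0.75 and -0.68 on arrays 1 to 3 and at -0.55, -0.74 and -0.73 on arrays 4 to 6, a mean of -0.75 ± 0.17 (adjusted p = 0.000716). The lowest value of the first pair, 0.094, was thus above the highest value of the third spot, -0.55. The fourth spot, listed for another transcript record, stood at 0.08 ± 0.08 (adjusted p = 0.277).

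Averaged over its spots, Tomm70a was at 0.23 ± 0.19 (adjusted p = 0.0571), a value that none of the 4 spots showed. Without array 1 the fitted mean was 0.31 with an adjusted p of 3.49e-05. With all arrays, Tomm70a was the only one of the 32 members with several spots that had spots past the threshold in opposite directions. This is a share of 3.12% against 1.11% of the 8211 genes with several spots.

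Tomm20, the main receptor for presequences, had a spot at -0.39 ± 0.23 that passed (SD, n = 6; adjusted p = 0.0226) and a spot listed for another transcript record at 0.36 ± 0.31 that did not (adjusted p = 0.0802). On array 1 both were low, at -0.85 and -0.25. On arrays 2 to 6 the first lay between -0.37 and -0.20 and the second between 0.41 and 0.63. The gene mean was -0.01 ± 0.27 (adjusted p = 0.961), and without array 1 it was 0.10 (adjusted p = 0.0323). Without array 1 both spots passed in limma, the first lower (adjusted p = 0.000106) and the second higher (adjusted p = 8.41e-06). Spot means more than 0.5 apart were found for Tomm70a and Tomm20, 2 of the 32 members with several spots or 6.25%, against 4.98% of all such genes. Which of the spots follows the transcript was not tested.

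**Figure D3:**
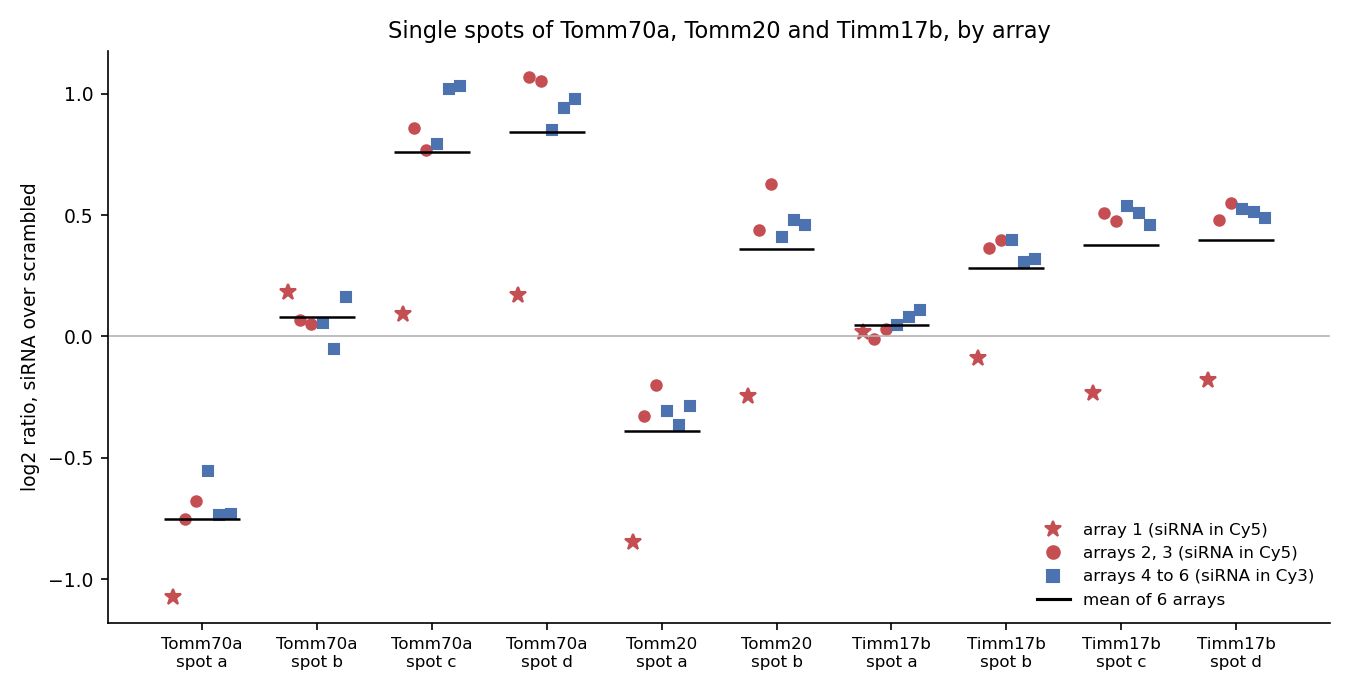
Log2 ratio of siRNA over scrambled (vertical axis) on each array for the single spots of Tomm70a, Tomm20 and Timm17b, ordered within each gene by their mean, shown as a bar. The spots of Tomm70a span means of -0.75 to 0.84 and those of Tomm20 means of -0.39 to 0.36, and array 1 lies below the other arrays on 8 of the 10 spots.

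The remaining TOM genes were the pore gene Tomm40, its relative Tomm40l, the Tomm20 relative Tomm20l and the small subunits Tomm5, Tomm6 and Tomm7. Of these 6 genes, 0 passed in limma, with 0 at an unadjusted p under 0.05, and none passed without array 1. Their means ran from -0.15 ± 0.30 for Tomm7 to -0.01 ± 0.17 for Tomm40 (SD, n = 6 each). Tomm7 was at -0.76 on array 1, and Tomm40l at -0.48.

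In the TIM23 complex, which draws presequence proteins through the inner membrane, Timm17b rose and the other 5 genes did not pass. Timm17b, a form of the Tim17 subunit at the core of the channel, was at 0.33 and 0.36 on arrays 2 and 3, at 0.38, 0.35 and 0.34 on arrays 4 to 6, and at -0.12 on array 1, the only one below 0. Its mean was 0.27 ± 0.19 (SD, n = 6; 1.21-fold) with an adjusted p of 0.0337. Without array 1 the fitted mean was 0.35 with an adjusted p of 1.36e-05, and without any other array the call was lost (adjusted p between 0.0937 and 0.123). Of its 4 spots, listed for 1 RefSeq transcript, 3 lay at 0.28 to 0.40, and 2 of these passed. The fourth was at 0.05 ± 0.04 (adjusted p = 0.332).

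The other form of that subunit, Timm17a, had a mean of -0.22 ± 0.21 (SD, n = 6; adjusted p = 0.0767), with a range over arrays from -0.63 to -0.06 and a median of -0.13. It was below 0 on 6 of 6 arrays, with array 1 farthest from 0. Of its 2 spots, 1 passed, at -0.22 (adjusted p = 0.0490). Without array 1 the gene was called lower, at -0.14 (adjusted p = 0.00591). The channel subunit gene Timm23 was at -0.04 ± 0.14, Timm50, whose product receives presequences from TOM, at -0.04 ± 0.26, and Timm21, which links the complexes of both membranes, at -0.19 ± 0.26. Timm44, which tethers the import motor, was at -0.20 ± 0.32. All 4 of these genes were lowest on array 1, Timm44 at -0.81 and Timm50 at -0.56. Without array 1, Timm50 was called higher, at 0.07 (adjusted p = 0.0473).

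In the TIM22 complex and the small TIM chaperones, which insert carriers into the inner membrane, 1 of 9 genes fell and 0 rose in limma, with 3 at an unadjusted p under 0.05. Timm29, a subunit of the TIM22 complex, ran from -0.30 to -0.05 over the 6 arrays with a median of -0.09, and all 6 values were below 0. Its mean was -0.12 ± 0.10 (SD, n = 6), or 91.9% of the scrambled level, with an adjusted p of 0.0338 on 1 spot. It was -0.19 ± 0.10 on the Cy5 arrays and -0.05 ± 0.005 on the Cy3 arrays (SD, n = 3 each). The call was lost without array 3, 4, 5 or 6 (adjusted p between 0.0665 and 0.124), on the Cy3 arrays alone (0.239) and without the dye term (0.0671).

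The small TIM genes lay mostly below 0 without passing. Timm8b was at -0.27 ± 0.31 (adjusted p = 0.177) and Timm8a1 at -0.27 ± 0.24 (adjusted p = 0.0855). Both were lowest on array 1, at -0.71 and -0.73. Without array 1 they were called lower, at -0.14 (adjusted p = 0.0459) and -0.17 (adjusted p = 0.0102). Without array 1, Timm8b did not keep a sign across the dye orientations, at -0.08 and 0.20 on arrays 2 and 3 and at -0.42, -0.35 and -0.25 on arrays 4 to 6. The others of this set, Timm10, Timm8a2, Timm10b, Timm13, Timm22 and Timm9, ran from -0.14 ± 0.27 for Timm10 to 0.03 ± 0.19 for Timm9 (SD, n = 6 each). One spot of Timm9 reached 0.95 on array 6, whereas arrays 1 to 5 gave -0.18 to 0.08.

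Timm13, a partner of the Timm8 proteins, took opposite signs on arrays 1 to 3 and arrays 4 to 6. It was at -0.54, -0.19 and -0.27 on arrays 1 to 3 and at 0.29, 0.21 and 0.25 on arrays 4 to 6, so that the arrays of the 2 dye orientations did not overlap. Both of its spots, listed for 1 RefSeq transcript, showed this. The mean of -0.04 ± 0.34 (SD, n = 6) and its adjusted p of 0.687 therefore average opposite signs. The dye term of Timm13 did not pass (adjusted p = 0.310). Over all 19019 genes 0 dye terms passed in limma, with 1756 at an unadjusted p under 0.05. Among the 69 members 10 were at an unadjusted p under 0.05. Slc25a13 and Slc25a24 also took opposite signs on the 3 arrays of each orientation, which makes 3 of 69 members, or 4.35%, against 5.04% of all genes.

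Among the nucleotide and cofactor carriers, Slc25a16 and Slc25a4 rose, 2 of 15 genes, and none fell. Slc25a16, a carrier linked to coenzyme A, was at 0.04, 0.48 and 0.34 on arrays 1 to 3 and at 0.23, 0.46 and 0.36 on arrays 4 to 6. All 6 values were above 0, with array 1 lowest. The mean was 0.32 ± 0.16 (SD, n = 6; 1.25-fold; adjusted p = 0.0159) on 1 spot. It was 0.28 ± 0.23 on the Cy5 arrays and 0.35 ± 0.11 on the Cy3 arrays (SD, n = 3 each). The call was lost without array 3, 5 or 6 (adjusted p between 0.0553 and 0.0787).

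Slc25a4, the ADP/ATP carrier of heart and muscle type also known as Ant1, ran from 0.007 to 0.24 with a median of 0.15, and all 6 values were above 0. The mean was 0.13 ± 0.09 (SD, n = 6; 1.09-fold; adjusted p = 0.0250). Its spots were at 0.10 (adjusted p = 0.221) and 0.16 (adjusted p = 0.0345), both listed for 1 RefSeq transcript. The alike signs hold for their average and for the second spot. The first spot was below 0 on arrays 1 and 3, at -0.225 and -0.033, where the second was at 0.279 and 0.047. The call was lost without array 2, 4, 5 or 6 (adjusted p between 0.0652 and 0.101), without the dye term (0.0508) and with the first spot per gene (0.208). The other ADP/ATP carrier genes, Slc25a5 and the testis-type Slc25a31, were at -0.01 ± 0.07 and 0.002 ± 0.05 (SD, n = 6 each), with adjusted p-values of 0.887 and 0.976. Whether the 3 ADP/ATP carriers differ from each other was not tested.

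The other 11 carriers of this set ran from -0.10 ± 0.15 for Slc25a36 to 0.21 ± 0.24 for Slc25a33 (SD, n = 6 each), both carriers of pyrimidine nucleotides. On array 1 Slc25a33 was at -0.27, and the lowest of arrays 2 to 6 was 0.27 and the highest 0.35. With all arrays its adjusted p was 0.155, and without array 1 it was called higher, at 0.31 (adjusted p = 5.57e-05). The peroxisomal carrier Slc25a17 was likewise below 0 on array 1, at -0.38, and above 0 on arrays 2 to 6, at 0.10 to 0.24. It was called higher without array 1 (0.18, adjusted p = 0.00138). The ATP-Mg/phosphate carrier Slc25a25 (0.11, adjusted p = 0.0179) and the S-adenosylmethionine carrier Slc25a26 (0.09, adjusted p = 0.0460) were also called higher without array 1. Slc25a26 was at 0.17 and 0.20 on arrays 2 and 3, but at -0.10, 0.03 and 0.06 on arrays 4 to 6.

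Of the 13 amino acid and carnitine carriers, Slc25a38 fell and none rose. Slc25a38, the mitochondrial glycine carrier needed in red cell precursors for the start of heme synthesis, was at -0.52, -0.54 and -0.36 on arrays 1 to 3 and at -0.61, -0.60 and -0.72 on arrays 4 to 6. All 6 values lay below 0, and array 1 lay among the others. The mean was -0.56 ± 0.12 (SD, n = 6), or 67.9% of the scrambled level, with an adjusted p of 0.000354 on 1 spot. It was -0.47 ± 0.10 on the Cy5 arrays and -0.65 ± 0.07 on the Cy3 arrays (SD, n = 3 each). Slc25a38 passed without each array in turn, and was the only member to do so.

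The other 12 carriers of this set lay close to 0, from -0.06 ± 0.07 for Slc25a29, a carrier of basic amino acids, to 0.06 ± 0.12 for Slc25a22, a glutamate carrier (SD, n = 6 each). Among them, the aspartate/glutamate carriers Slc25a12 and Slc25a13 were at -0.003 ± 0.09 and -0.005 ± 0.11, the ornithine carrier Slc25a15 at -0.05 ± 0.06 and the carnitine/acylcarnitine carrier Slc25a20 at 0.05 ± 0.08. The smallest adjusted p among the 12 was 0.272, for Slc25a29.

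Of the 5 phosphate, metal and glutathione carriers, Slc25a3 fell. Slc25a3, which brings phosphate into the matrix for ATP synthesis, ran from -0.22 to -0.04 over the 6 arrays with a median of -0.09, and all 6 values were below 0. The mean was -0.11 ± 0.07 (SD, n = 6), or 92.9% of the scrambled level, with an adjusted p of 0.0469. None of its 3 spots passed in limma, the smallest adjusted p being 0.0651 for the spot at -0.23. The call was lost without array 2, 4, 5 or 6 (adjusted p between 0.118 and 0.171), on the Cy3 arrays alone (0.122), and with the median (0.0574) or the first (0.746) of its spots. The iron carriers Slc25a28 and Slc25a37 (mitoferrins) and the glutathione carriers Slc25a39 and Slc25a40 lay between 0.02 and 0.04. Without array 1, Slc25a28 was called higher, at a fitted mean of 0.13 balanced for dye (adjusted p = 0.00622). Its values were 0.25 and 0.25 on arrays 2 and 3 and -0.04, -0.02 and 0.08 on arrays 4 to 6.

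None of the 6 carboxylate and keto acid carriers, 3 carriers related to uncoupling proteins and 2 further carriers passed in limma, with 2 of these 11 genes at an unadjusted p under 0.05. Slc25a11, which exchanges oxoglutarate for malate, was at -0.36, 0.16 and 0.16 on arrays 1 to 3 and at 0.36, 0.39 and 0.50 on arrays 4 to 6. Array 1 was the only one below 0. The mean was 0.20 ± 0.30 (SD, n = 6; adjusted p = 0.128), and without array 1 it was called higher, at 0.29 (adjusted p = 0.000118). The citrate carrier Slc25a1 was at 0.03 ± 0.21 and the dicarboxylate carrier Slc25a10 at -0.08 ± 0.21. Slc25a14, related to the uncoupling proteins, was at -0.10 ± 0.10 (adjusted p = 0.181). Of its 3 spots, 1 passed at -0.32 (adjusted p = 0.0176), and the others stood at -0.02 and 0.06. Slc25a43 was at -0.08 ± 0.11 (adjusted p = 0.345), and without array 1 it was called lower, at -0.11 (adjusted p = 0.0399).

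Array 1 gave low values for the import genes and for a list of other import motor, processing and assembly genes. For the 25 import genes the median was -0.32 on array 1, while arrays 2 to 6 gave -0.058 to 0.080. For the 44 carriers it was -0.036, while arrays 2 to 6 gave -0.0013 to 0.027. For all genes it was -0.010, while arrays 2 to 6 gave -0.0015 to 0.0050. The 5th percentile over all genes was -0.53 on array 1 and -0.26 to -0.21 on arrays 2 to 6. Low values on array 1 were thus not confined to these lists, which the median over all genes does not show. The weight estimated by limma was 0.196 for array 1 and 1.16 to 1.61 for the others. Lists that hold no member were low on array 1 too. The median was -0.33, with 88.6% of values below 0, for the other import motor, processing and assembly genes. It was -0.17, with 92.9% below 0, for the biogenesis regulators. Within the import genes, the array 1 median was -0.54 for the TIM22 and small TIM genes, -0.53 for the TIM23 complex and -0.22 for the TOM genes. Array 1 gave the lowest of the 6 values for 21 of 25 import genes and 16 of 44 carriers, and for 34.6% of all genes. The part of array 1 in each mean can be read from the values without it.

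Without array 1, 21 members passed, 13 higher and 8 lower, or 30.4% against 25.9% of all genes in that fit (18.8% against 13.7% for higher, 11.6% against 12.2% for lower). They included all 8 that passed with every array. Of the 13 added, 9 were higher and 4 lower in siRNA-transfected cells. Of the 9 higher, 6 were carriers (Slc25a11, Slc25a17, Slc25a25, Slc25a26, Slc25a28 and Slc25a33) and 3 import genes (Timm50, Tomm20 and Tomm70a). The calls of Tomm20 and Tomm70a are averages of spots that passed in opposite directions without array 1, so they give no direction for these genes. The 4 lower were Timm8a1, Timm8b, Timm17a and Slc25a43. The median over members became 0.0080. Leaving out another array lowered the number of calls. It was 4 members without array 2 (9.51% of all genes), 6 without array 3 (10.6%), 3 without array 4 (8.21%), 1 without array 5 (5.87%) and 1 without array 6 (6.38%). On the Cy3 arrays alone 16 members passed, or 23.2% against 22.4% of all genes, and with limma's array weights also 16, against 24.9%. On the Cy5 arrays alone, which hold array 1, 0 members passed in limma against 0.0473% of all genes, with 11 members at an unadjusted p under 0.05, or 15.9% against 13.2%.

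**Figure D4:**
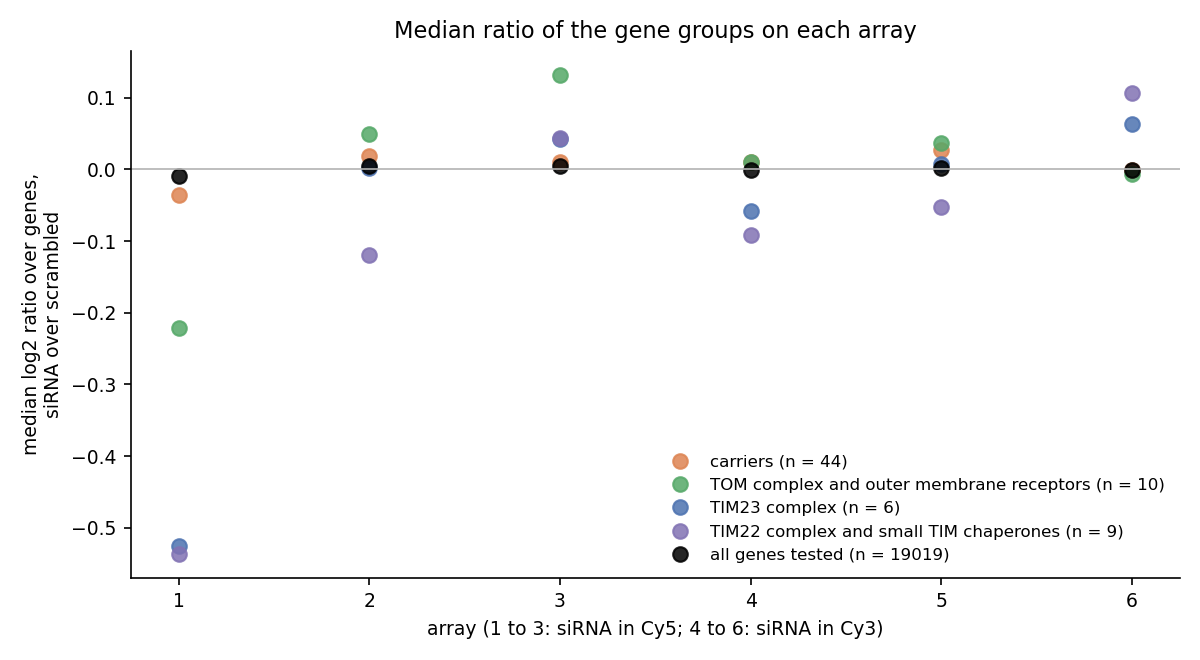
Median log2 ratio of siRNA over scrambled (vertical axis) on each array (horizontal axis) for the carriers, the 3 sets of import genes and all genes tested. On array 1 the TIM23 and TIM22 sets stand at -0.53 and -0.54, and on arrays 2 to 6 the medians of all sets lie between -0.12 and 0.13.

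With all 6 arrays, the members' share of calls by single spots lay above that of all spots, whereas by genes it lay below that of all genes. Of the 115 member spots, 16 passed, 8 higher and 8 lower, or 13.9% against 11.1% of 43530 spots (4.21% higher and 6.85% lower). Those 43530 include spots with no gene listed, and among the 31866 that name 1 gene the share was 13.4%. Without array 1 the number was 37, or 32.2% against 19.4% of all spots and 23.6% of spots that name 1 gene. It was 6 without array 2 (7.41% of all spots), 10 without array 3 (8.13%), 6 without array 4 (6.50%), 4 without array 5 (4.41%) and 4 without array 6 (4.93%). With array weights 30 member spots passed, or 26.1% against 17.3%, and on the Cy3 arrays alone 29, or 25.2% against 18.2%. On the Cy5 arrays alone 0 of all spots passed in limma, with 21 member spots at an unadjusted p under 0.05. Spots of 1 gene share a target, so these are not separate observations. Signs were alike on all 6 arrays for 9 members, or 13.0%, against 17.9% of all genes.

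A further list held 35 import motor, processing and assembly genes that are no members. It is wider than the import path and also holds, among others, Clpp, Lonp1, Phb, Phb2 and Tspo. Of the 35, 4 fell and 1 rose (11.4% and 2.86%, against 9.11% and 5.88% of all genes). Without array 1, 8 were lower and 8 higher (22.9% each, against 12.2% and 13.7% of all genes), and 2 or 3 in all passed without any other array. Hspa9, the mitochondrial Hsp70 that pulls precursors into the matrix, fell by 0.58 ± 0.13 on the log2 scale, to 66.7% of the scrambled level (SD, n = 6; adjusted p = 0.000512), with both spots past the threshold. Hspd1, the chaperonin that folds imported proteins, fell by 1.45 ± 0.11 (adjusted p = 4.82e-05). Mtch2, an outer membrane relative of the Slc25 carriers, was at -0.22 ± 0.15 (adjusted p = 0.0345), with spots at -0.48 and 0.03, and lost its call without array 2, 4, 5 or 6 (adjusted p between 0.0543 and 0.132) and when spots with a value on at least 4 arrays were used (0.164). Tspo, an outer membrane protein gene, rose (0.35 ± 0.23, adjusted p = 0.0321), with both spots alike. The call of Tspo was lost without array 2, 3, 4, 5 or 6 (adjusted p between 0.0518 and 0.126). The median of the list was -0.028.

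Of 15 other membrane transporters, 1 fell and 1 rose (6.67% each, against 9.11% and 5.88% of all genes). Vdac3, a porin of the outer membrane, ran from -0.80 to -0.41 over the 6 arrays with a mean of -0.59 ± 0.13 (SD, n = 6), 66.4% of the scrambled level (adjusted p = 0.000487). Sfxn3, a sideroflexin of the inner membrane, was at 0.18 ± 0.10 (adjusted p = 0.0269), a call lost without array 2, 3, 5 or 6 (adjusted p between 0.0800 and 0.109). Both rest on 1 spot. The list median was 0.013, and 4 genes passed without array 1 (3 higher and 1 lower) and 1 or 2 without any other array.

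Of 14 regulators of mitochondrial biogenesis, 5 fell and none rose (35.7% lower, against 9.11% of all genes). Without array 1, 6 were lower and 4 higher (42.9% and 28.6%, against 12.2% and 13.7% of all genes). Tfb2m, a mitochondrial transcription factor, fell by 0.58 ± 0.11 on the log2 scale (SD, n = 6; adjusted p = 0.000422), with both spots past the threshold. Gabpa, the DNA-binding subunit of GABP, had a mean of -0.27 ± 0.06 (adjusted p = 0.00233), but its 3 spots, listed for 1 RefSeq transcript, went apart at -0.60, -0.40 and 0.18, and each passed. Yy1 was at -0.19 ± 0.06 (adjusted p = 0.00589) and Creb1 at -0.16 ± 0.07 (adjusted p = 0.0161). The spots of Creb1 lay at -0.32, -0.20 and 0.06, and its call was lost without array 2, 5 or 6 (adjusted p between 0.0562 and 0.0800). Of the 3 spots of Yy1, 1 passed, at -0.52, and the others were at -0.05 and 0.02, and the call of the gene was lost with the median of its spots (0.0885). The list median was -0.0013.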

How the data were processed

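Per the labels' protocols, RNA was isolated with Trizol, then amplified and dye-labelled with an Agilent kit. The deposited values are log ratios that the authors had normalized, taken here as log2, for 44290 spots on 6 arrays. How the arrays were scanned, background-corrected and normalized is not given in the sources used here, and the log base was inferred (a natural log would make each fold larger). Named spots correlated at 0.53 to 0.71 across dye orientations (arrays 2 to 6), so no array's sign was turned and the ratios were used as deposited. No source states separate transfections, so the p-values rest on the spread between these arrays, which may be technical. The number of arrays limits the precision. The series' design text speaks of overexpression and human genes, and the sample labels were followed instead.

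Of the spots, 32042 named 1 gene, 47 several and 12201 none. Spots with a value on all 6 arrays were averaged per gene over 19019 genes. Symbols follow the GRCm38.p6 gene table. R 4.3.3 with limma 3.58.1 (statmod 1.5.0 for the robust alternative) fitted the mean ratio and a dye term, with Benjamini-Hochberg adjustment over all genes or all spots. Means without array 1 are fitted means balanced for dye. The procedure was tested on simulated data with the same spread on every array. That test did not cover an array that stands apart, as array 1 does here.

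Members, role groups and lists were chosen with earlier results of these data known. Named genes were Rest, members past the threshold, the member with the smallest p in a role group with no call, members whose spots lay over 0.5 apart, and up to 4 called genes per list of other genes. Further members are named as ends of a range, for a dye split, or because they passed without array 1, chosen after their values were seen. Alternatives were the dye term, the summary of spots, array scaling, array weights, robust moderation, missing values, each dye orientation alone and each array left out.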

Additional observations from a re-analysis of the deposited data

Results flagged for a closer look

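Array 1 lay far from the other 5 for 6 of the 27 results tested for a sample apart from its group, and each of these 6 was on array 1. Chance flags about 1 in 20 separate groups, but these results share the same arrays and the medians contain the genes, so that rate gives no expected number here. Timm17b was at -0.1212 there, against 0.33 to 0.38 on arrays 2 to 6. Tomm70a was at -0.1568, against 0.29 to 0.36, and Tomm20 at -0.5460, against 0.051 to 0.21. Mtch2, a relative of the carriers, was at -0.5255, against -0.20 to -0.12. The median over all members was -0.1555, against 0.0010 to 0.025, and the median over the import genes -0.3195, against -0.058 to 0.080. The cause was not tested.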

How the results depend on the processing

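With array weights, 16 members passed, as on the Cy3 arrays alone, while 0 passed in limma on the Cy5 arrays alone, where 11 had an unadjusted p under 0.05. Leaving out 1 array gave 1 to 21 member genes. For member spots the numbers were 30 with weights, 29 on Cy3 arrays, 0 on Cy5 arrays (21 at an unadjusted p under 0.05), and 4 to 37 without an array. Of the import motor, processing and assembly genes outside the rule, 14 passed with weights, 14 on Cy3 arrays, 1 on Cy5 arrays and 2 to 16 without an array. Of the other transporters, 0 passed on Cy5 arrays in limma (2 unadjusted) and 1 to 4 without an array. Of the biogenesis regulators, 3 passed with the median or the first spot per gene, 9 with weights, 9 on Cy3 arrays, 0 on Cy5 arrays (5 unadjusted) and 4 to 10 without an array. Rest was at -0.0542 with its first spot (adjusted p = 0.742) and at -0.2781 on Cy5 arrays (adjusted p = 0.205).

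Slc25a11 turned to -0.0127 on Cy5 arrays. Tomm20 turned to 0.3618 with its first spot, 0.0008 after scaling, 0.0710 with weights, 0.0648 on Cy3 arrays and 0.0997 without array 1, its range without 1 array being -0.0902 to 0.0997. Gabpa turned to 0.1802 and Yy1 to 0.0160 with the first spot. The 8 called members kept their direction under all 15 alternatives, but some of these could not change it. Dropping the dye term, robust moderation and allowing missing values left the ratios of members as they were. For called members with 1 spot, the median and the first spot also left the ratio as it was. Passes under those settings are therefore not separate checks. Of the 15 alternatives, Slc25a38 passed under 14, Tomm22 under 12, Slc25a16 under 11, Timm17b under 9, Slc25a4, Timm29 and Tomm34 under 8 each, and Slc25a3 under 7. The causes were not tested. No paired analysis was possible because the pairing is already in the values: each ratio sets the siRNA sample against the scrambled sample of the same number, and the fit of the ratios is itself paired. Signal over background was not used here, since the values are ratios.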
